A study of Mus musculus with 3 samples.

Results

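The MAP kinase phosphatases are the 10 dual-specificity phosphatase genes Dusp1, Dusp2, Dusp4, Dusp5, Dusp6, Dusp7, Dusp8, Dusp9, Dusp10 and Dusp16. They were chosen by name, with the treated over untreated log2 ratios of these 3 arrays already known, and were found as the array probes whose transcript accession belongs to one of these symbols, which gave 12 of the 55681 probes and 10 of the 20660 genes named on the array. RNA of bone marrow-derived macrophages from mice labelled WT (strain C57BL/6J) was compared after 18 h with adiponectin, a hormone of fat cells, at 12 µg/ml and after no treatment. Cells of both groups had differentiated in L929-conditioned medium, whose mouse fibroblasts release the macrophage growth factor CSF-1, and were kept in low serum before treatment. Each of 3 arrays held 1 treated and 1 untreated RNA sample in different dyes, and the treated RNA carried Cy3 except on replicate 2, where it carried Cy5. The arrays are labelled as biological replicates without naming animals, so the spread given here is that between these samples.

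MAP kinases are switched on by phosphorylation of a threonine and a tyrosine in their activation loop, and these phosphatases switch them off by removing both phosphates. The family falls into a group of nuclear, inducible enzymes (Dusp1, Dusp2, Dusp4 and Dusp5), a group of cytoplasmic enzymes that act mainly on the kinase ERK (Dusp6, Dusp7 and Dusp9) and a group that acts mainly on the stress kinases JNK and p38 (Dusp8, Dusp10 and Dusp16). In macrophages the family is known for limiting the strength and duration of inflammatory signals, and Dusp1 in particular for restraining cytokine production.

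The members differed in direction. Dusp2, Dusp4 and Dusp1 of the nuclear group and all measured members of the JNK and p38 group had a higher level in treated cells, while Dusp6 of the ERK group was lower. Dusp5, Dusp7 and Dusp9 stayed within a mean log2 ratio of -0.17 to 0.20. All 10 members were measured, that is, well above background in at least 3 of 6 channel readings, and 9 of them in all 6. Dusp9 was above background in 1 treated and 3 untreated readings.

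As the members were selected on that ratio, every ratio of a member below is a description, and no p-value is given for it. The members were part of the fit of all genes, and the counts of their calls are a description too. In limma with Benjamini-Hochberg adjustment over 13182 genes, 6 of the 10 were called higher, where 24.5% of all genes were, and 1 was called lower, where 46.1% of all genes were. With a change of at least 2-fold required as well, the counts were again 6 and 1, and 6.8% and 12.6% of all genes passed. The median log2 ratio was 1.23 over the 10 members and -0.17 over all tested genes. All 3 treated levels lay above all 3 untreated levels for 7 members (26.8% of genes) and below them for 1 member (48.7% of genes). The levels of Dusp7 and Dusp9 overlapped.

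Sequence upstream of the start was at hand for 8 members, in a RefSeq table of build GRCm38.p6 that has no entry for Dusp4 and Dusp9. The 250 bases before the start are printed for Dusp2, the member with the highest ratio, for Dusp6, the one with the lowest, and for Dusp1, Dusp8 and Dusp5, which hold motifs of factors that respond to kinase signalling. Each runs 5′ to 3′ on the strand of the gene. Capitals mark the CRE core TGACG (the shared part of sites bound by CREB and ATF factors), the AP-1 motif TGANTCA, the NF-kB motif and the CArG box of serum response factor, each searched on both strands.
Dusp1, chr17:26508473-26508722, minus strand: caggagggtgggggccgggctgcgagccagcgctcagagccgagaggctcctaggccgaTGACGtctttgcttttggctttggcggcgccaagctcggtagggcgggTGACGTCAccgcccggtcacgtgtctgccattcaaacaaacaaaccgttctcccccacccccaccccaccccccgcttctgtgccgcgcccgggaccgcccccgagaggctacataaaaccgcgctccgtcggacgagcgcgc
Dusp8, chr7:142095285-142095534, minus strand: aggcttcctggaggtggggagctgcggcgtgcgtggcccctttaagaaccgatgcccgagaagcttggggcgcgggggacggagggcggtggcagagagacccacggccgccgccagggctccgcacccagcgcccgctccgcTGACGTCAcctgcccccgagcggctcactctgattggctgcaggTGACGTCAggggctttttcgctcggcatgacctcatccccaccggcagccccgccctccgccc
Dusp5, chr19:53528895-53529144, plus strand: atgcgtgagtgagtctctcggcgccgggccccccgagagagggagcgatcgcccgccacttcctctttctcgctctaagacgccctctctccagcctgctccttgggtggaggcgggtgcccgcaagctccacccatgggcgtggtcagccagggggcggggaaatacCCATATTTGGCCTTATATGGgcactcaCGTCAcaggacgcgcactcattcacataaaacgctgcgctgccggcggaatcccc
Dusp2, chr2:127335909-127336158, plus strand: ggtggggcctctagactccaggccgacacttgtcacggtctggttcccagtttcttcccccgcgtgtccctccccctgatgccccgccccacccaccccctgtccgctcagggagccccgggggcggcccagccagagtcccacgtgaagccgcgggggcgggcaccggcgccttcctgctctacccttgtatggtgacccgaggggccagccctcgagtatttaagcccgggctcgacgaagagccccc
Dusp6, chr10:99262981-99263230, plus strand: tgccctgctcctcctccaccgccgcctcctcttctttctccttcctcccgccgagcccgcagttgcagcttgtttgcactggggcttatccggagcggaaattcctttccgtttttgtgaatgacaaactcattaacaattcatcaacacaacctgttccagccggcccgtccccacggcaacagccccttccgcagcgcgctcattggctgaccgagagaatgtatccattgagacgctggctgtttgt

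The full CRE, TGACGTCA, whose letters include the CRE core on either strand, was found 1 time upstream of Dusp1, beginning 143 bases before the start, and 2 times upstream of Dusp8, where the nearer begins 63 bases before the start. It occurred in 1.55% of all 32851 promoter windows trimmed to the same length. The core, counted also where it lies within a full CRE, was found in 4 of the 8 member promoters, against 17.8% of all windows. These were Dusp1, Dusp5, Dusp8 and Dusp16, and in Dusp8 it lay only within the full CREs. Dusp5 held 2 adjacent CArG boxes, beginning 82 and 72 bases before the start, a motif in 1.47% of all windows. The AP-1 and NF-kB letters were found in none of the 8 windows, against 6.75% and 3.86% of all windows. Other forms of these motifs were not searched. Dusp2 and Dusp6 therefore have no capitals. The GC box GGGCGG, which is not capitalised, was present upstream of 6 of the 8 and in 32.7% of all windows, and it was not found upstream of Dusp6 or Dusp7. The member windows had a GC content of 56.4% (Dusp6) to 77.2% (Dusp7), and the windows they were compared with were not matched for it. Whether base content accounts for the differences in motif frequency was not tested. The matches are letters in a window and not measured binding.

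The nuclear group held the members with the highest ratios. Levels are given as log2 normalized intensity, which can be compared between samples for 1 probe but not between probes. Dusp2, a phosphatase of ERK and p38 known mainly from immune cells, was at 15.63, 15.34 and 15.64 in treated cells on replicates 1, 2 and 3, against 10.66, 10.34 and 10.49 in untreated cells. Every treated sample was far above every untreated one. Its log2 ratio lay between 4.96 and 5.15 on the 3 arrays, with a mean of 5.04 ± 0.10 (SD, n = 3 arrays), or 32.9-fold, at rank 9 from the highest of 13182 genes.

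Dusp4, which acts on ERK and JNK in the nucleus, was at 13.15, 13.13 and 13.40 in treated cells, against 9.24, 9.38 and 9.32 in untreated cells. The groups were again apart, with a mean log2 ratio of 3.91 ± 0.16 (SD, n = 3 arrays), or 15.1-fold, at rank 23. Dusp1, the nuclear phosphatase that prefers p38 and JNK, was at 13.20, 13.47 and 13.25 in treated cells, against 10.90, 10.63 and 10.81 in untreated cells. Its ratio was largest on replicate 2, at 2.84, against 2.30 and 2.44 on replicates 1 and 3, with a mean of 2.53 ± 0.28 (SD, n = 3 arrays), or 5.76-fold. Median centring instead of loess gave Dusp1 a mean of 1.38.

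Dusp5, the nuclear phosphatase specific for ERK, stood apart from the rest of its group. It was at 6.36, 6.58 and 6.34 in treated cells, against 6.18, 6.30 and 6.20 in untreated cells. The treated samples were above the untreated ones by a small margin, and the mean log2 ratio was 0.20 ± 0.071 (SD, n = 3 arrays). All of these levels lay near the dimmest signals counted as well above background, which were 6.07 to 6.16 in treated and 5.79 to 6.04 in untreated channels. The ratio of Dusp5 differed between ways of processing, at 0.27 with no background correction, 0.59 when normexp had an offset of 0, 0.97 by the log ratio of the scanner software and 0.34 in the authors' deposited table.

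**Figure D1:**
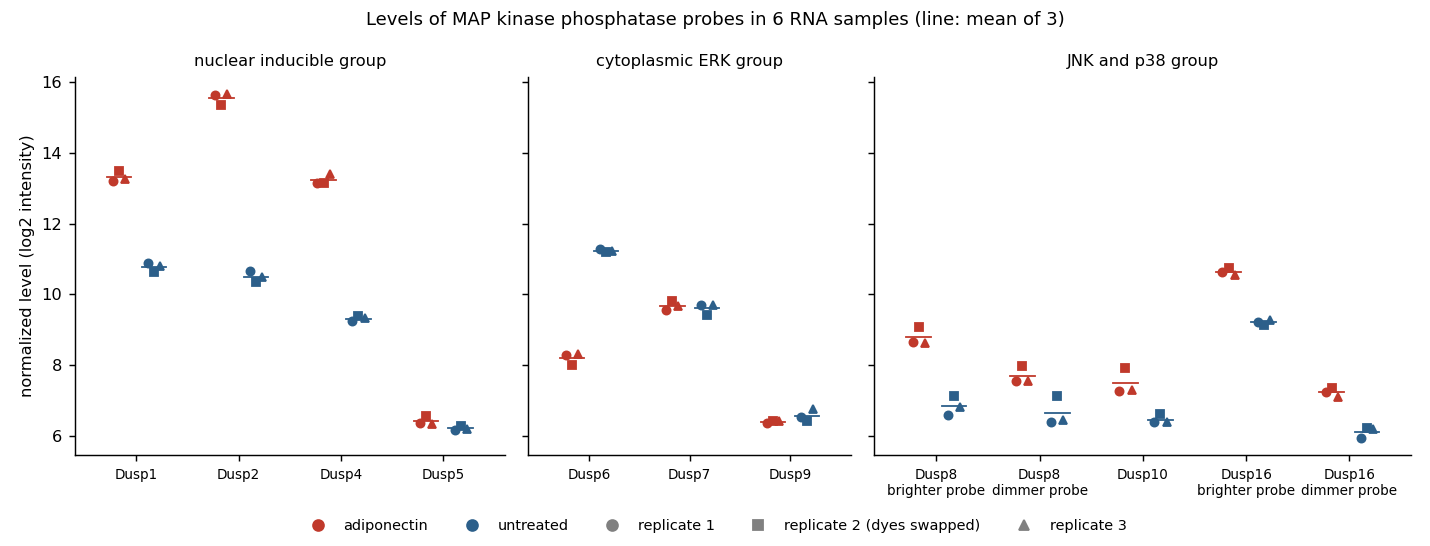
Normalized level (log2 intensity) of every probe of the 10 genes in the 3 adiponectin-treated samples (red, left of each pair) and the 3 untreated samples (blue, right). Each point is 1 RNA sample, its shape the array, and the line the mean of 3. Treated samples of Dusp2 lie at 15.34 to 15.64 and untreated ones at 10.34 to 10.66, and Dusp6 runs the other way.

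Among the cytoplasmic ERK phosphatases, Dusp6 was the member that was lower in treated cells. Dusp6 removes phosphate from ERK and, as background, its own transcription is known to be driven by ERK signalling. It was at 8.30, 8.02 and 8.32 in treated cells, against 11.29, 11.21 and 11.22 in untreated cells. No treated sample came near an untreated one. The log2 ratio was -2.99, -3.19 and -2.90 on the 3 arrays, with a mean of -3.03 ± 0.15 (SD, n = 3 arrays), an 8.15-fold difference. Dusp6 had rank 18 from the lowest.

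Dusp7, a close relative of Dusp6, was at 9.55, 9.83 and 9.68 in treated cells, against 9.71, 9.42 and 9.69 in untreated cells. The groups overlapped, and the ratio changed sign between arrays, at -0.16, 0.41 and -0.01, with a mean of 0.08 ± 0.29 (SD, n = 3 arrays). The sign of the mean rested on replicate 2, since it was -0.085 without that array. Median centring instead of loess gave -1.06. Dusp9, a relative best known from the placenta, was at 6.37, 6.43 and 6.43 in treated cells, against 6.56, 6.43 and 6.77 in untreated cells. Those levels also overlapped, with a mean log2 ratio of -0.17 ± 0.17 (SD, n = 3 arrays). As Dusp9 was well above background in 1 of 3 treated readings, its ratio rests in part on readings near background. The ratio was -0.50 when normexp had an offset of 0 and -1.15 by the log ratio of the scanner software. With every array centred on its tested genes it was -0.0031.

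**Figure D2:**
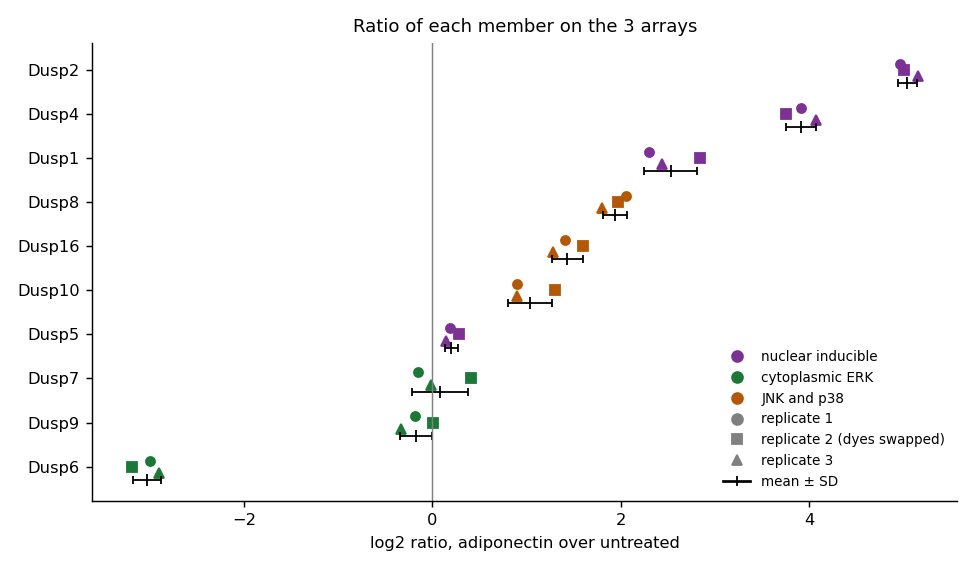
Log2 ratio of adiponectin over untreated (x axis) for each member (1 row a gene, 1 point an array, with mean and SD in black below), coloured by group. Dusp2 lies at 4.96 to 5.15 and Dusp6 at -3.19 to -2.90, while the arrays of Dusp7 fall on both sides of 0.

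All 3 phosphatases of JNK and p38 were higher in treated cells. Dusp8 has 2 probes. The brighter read 8.66, 9.10 and 8.62 in treated cells, against 6.61, 7.13 and 6.83 in untreated cells, and the dimmer 7.57, 7.99 and 7.57 in treated cells, against 6.41, 7.13 and 6.46 in untreated cells. Both probes separated the groups, but their sizes differed, with a mean log2 ratio of 1.94 ± 0.13 for the brighter and 1.04 ± 0.16 for the dimmer (SD, n = 3 arrays each). The log ratio of the scanner software gave the brighter probe 2.91, and median centring instead of loess gave it 1.20. On replicates 1 and 3 the untreated level of the dimmer probe was not far above the dimmest signals counted as well above background.

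Dusp16, a phosphatase of JNK above all, also has 2 probes, which were closer to each other. The brighter read 10.62, 10.75 and 10.55 in treated cells, against 9.22, 9.15 and 9.27 in untreated cells, and the dimmer 7.24, 7.38 and 7.10 in treated cells, against 5.96, 6.24 and 6.21 in untreated cells. The groups did not overlap on either probe. The mean log2 ratio was 1.43 ± 0.16 for the brighter and 1.10 ± 0.20 for the dimmer (SD, n = 3 arrays each), where the dimmer probe was well above background in 1 of 3 untreated readings. Median centring instead of loess gave the brighter 0.27.

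Dusp10, which is known to limit JNK and p38 in immune cells, was at 7.29, 7.92 and 7.31 in treated cells, against 6.40, 6.62 and 6.41 in untreated cells. These untreated levels were not far above the dimmest signals counted as well above background in untreated channels, 5.79 to 6.04. The groups were apart, and replicate 2 had the highest level in both. The log2 ratio was 0.89, 1.31 and 0.90 on the 3 arrays, with a mean of 1.03 ± 0.24 (SD, n = 3 arrays), and it was 0.90 without replicate 2. The size of this ratio moved with the processing more than its direction did, with 0.67 under median centring, 1.88 when normexp had an offset of 0 and 2.40 by the log ratio of the scanner software.

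Replicate 2 was the array with swapped dyes, and it gave the highest ratio of the 3 for Dusp1, Dusp5, Dusp7, Dusp9, Dusp10 and Dusp16. A dye term in the fit, which leaves 1 residual degree of freedom, was estimated for each gene. The dye coefficients of the 10 members lay between -0.12 and 0.25 on the log2 scale, and none passed in limma, with adjusted p-values of 0.291 to 0.940, where 44 of all tested genes passed. A p that misses the threshold in this small design does not show that there was no dye effect.

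**Figure D3:**
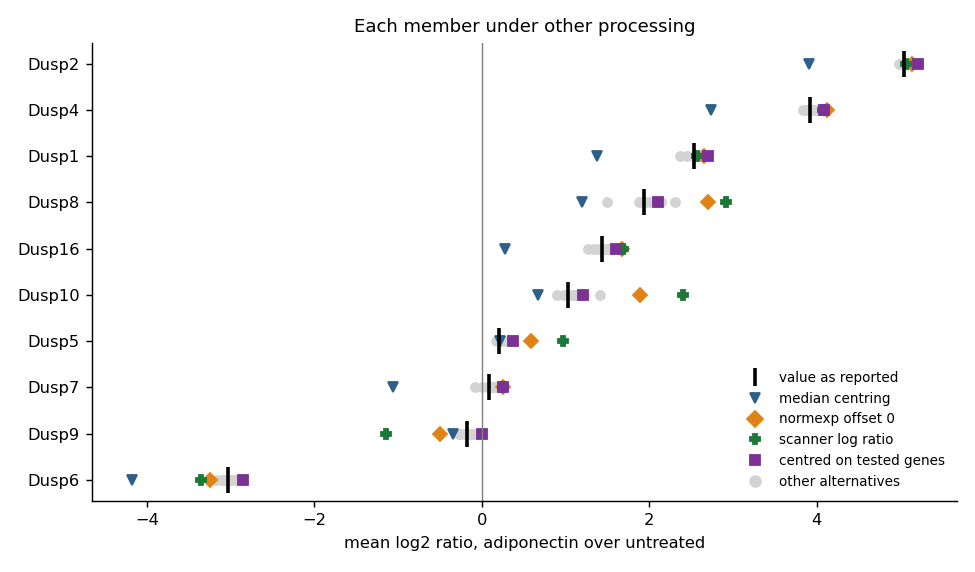
Mean log2 ratio of adiponectin over untreated for each member as reported (black bar) and under 15 other ways of processing or fitting (points, 1 row a gene). Median centring lies left of the other values for Dusp1, Dusp2, Dusp4, Dusp6, Dusp7, Dusp8, Dusp10 and Dusp16, and the scanner software's log ratio lies farthest right for Dusp5, Dusp8, Dusp10 and Dusp16.

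Ccr7, the receptor by which dendritic cells and T cells home to lymph nodes, and Adora2b, an adenosine receptor, were among the 3 tested genes whose array ratios were most like those of Dusp2. They differed from Dusp2 by a root mean square of 0.072 and 0.157 on the log2 scale over the 3 arrays. Lyl1, a blood cell transcription factor, and Cysltr1, a leukotriene receptor, were among the 3 most like Dusp6, with differences of 0.096 and 0.106. Only the nearness of the ratios was measured.

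The MAP kinase pathway around the phosphatases was read from lists of 96 other genes, 85 of which were measured. Of these, 25 rose and 34 fell in limma with Benjamini-Hochberg adjustment over all genes, with a median log2 ratio of -0.07 against -0.17 over all tested genes. Centring every array on its tested genes gave 36 that rose and 30 that fell, and median centring instead of loess gave 0 in either direction, where 5315 of all genes had an unadjusted p under 0.05. At 2-fold or more, 9 rose and 9 fell. In the fit as reported, 24.5% of all tested genes rose and 46.1% fell. At 2-fold or more these shares were 6.8% and 12.6%. They are the background for the counts of each list below.

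Upstream kinases went both ways. Of 14 measured MAP kinase kinase kinases, 4 rose and 5 fell, with a median of -0.06. Of 7 measured MAP kinase kinases, 1 rose and 2 fell, all by less than 2-fold, with a median of -0.12.

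Of 11 measured MAP kinases, 3 rose and 3 fell, with a median of 0.04. Mapk14, the main p38 isoform of macrophages, was at 10.91, 10.85 and 10.48 in treated cells, against 12.31, 12.26 and 12.35 in untreated cells, a log2 ratio of -1.56 ± 0.11 (moderated SE, limma adjusted p = 4.41e-06) that was -0.89 with its dimmer probe. Mapk9, a JNK gene, fell to 8.86, 8.88 and 8.97 in treated cells, against 10.22, 10.31 and 10.32 in untreated cells, or -1.38 ± 0.080 (moderated SE, limma adjusted p = 1.51e-06), while its dimmer probe gave -0.14. Mapk6, an atypical member of the family, rose by 1.23 ± 0.095 (moderated SE, limma adjusted p = 7.02e-06), and its other probes reached 2.18, while median centring gave it 0.086. The kinases that the phosphatases act on did not share a direction.

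Among 10 measured kinases that act downstream of MAP kinases, 4 rose and 5 fell (median -0.08). Mknk2, a kinase of the translation factor eIF4E, rose by 1.05 ± 0.087, and Rps6ka1, a target of ERK, fell by 1.05 ± 0.11 on the log2 scale (moderated SE each). The limma adjusted p was 1.03e-05 for Mknk2 and 3.66e-05 for Rps6ka1. Median centring gave Mknk2 0.0031.

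Early genes that respond to ERK, listed together with transcription factors of that response, went both ways. Of 17 measured, 8 rose and 4 fell, with a median of 0.09. Phlda1 was at 11.24, 11.56 and 11.62 in treated cells, against 7.78, 7.76 and 7.63 in untreated cells, and rose by 3.75 ± 0.11 (moderated SE, limma adjusted p = 6.31e-08). Junb, an AP-1 subunit, and Ier3, an early response gene, rose by 2.07 ± 0.12 and 1.84 ± 0.079, and stood at 0.91 and 0.66 with median centring. Etv5, an ETS transcription factor often read together with Dusp6 as an output of ERK signalling, was at 8.59, 8.73 and 8.76 in treated cells, against 11.16, 10.84 and 11.03 in untreated cells. Etv5 fell by 2.32 ± 0.10 on the log2 scale (moderated SE, limma adjusted p = 4.15e-07), and Fos, another AP-1 subunit, by 1.08 ± 0.092.

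Of 6 measured feedback inhibitors of ERK from the Sprouty and Spred list, 2 rose and 1 fell, with a median of -0.05. Il17rd, which binds the kinase that activates ERK, rose by 1.01 ± 0.088 (moderated SE, limma adjusted p = 1.47e-05), with 1 of 3 untreated readings well above background. Its size moved with the processing, to 1.55 in the authors' deposited table, 2.43 when normexp had an offset of 0 and 3.31 by the log ratio of the scanner software. Spry2, Spred2 and Spred3 did not pass, at -0.20, -0.14 and 0.05, and Spry2 was not well above background in any treated reading.

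Of the genes for phosphatases of MAP kinases outside the dual-specificity family, or for subunits of these phosphatases, 8 were measured. Of these, 2 rose and 6 fell, with a median of -0.48, where 24.5% of all tested genes rose and 46.1% fell. Ptpn7, a tyrosine phosphatase of blood cells that acts on ERK and p38, was at 8.96, 8.90 and 8.96 in treated cells, against 10.55, 10.66 and 10.56 in untreated cells. It fell by 1.65 ± 0.084 on the log2 scale (moderated SE, limma adjusted p = 7.48e-07), and its dimmer probe gave -0.37.

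Of 12 measured atypical dual-specificity phosphatases, which lack the MAP kinase-binding domain of the members, 1 rose and 8 fell, with a median of -0.47. Over all tested genes 24.5% rose and 46.1% fell. Dusp3 was at 11.48, 11.84 and 11.35 in treated cells, against 13.41, 13.18 and 13.32 in untreated cells, and fell by 1.75 ± 0.13 on the log2 scale (moderated SE, limma adjusted p = 5.27e-06), with -0.85 for its dimmer probe. Dusp22, a regulator of JNK signalling, and Dusp28 fell by 1.27 ± 0.079 and 1.00 ± 0.083, with -0.70 for the dimmer probe of Dusp22. Dusp14, which rose, was at 0.49. The lists were not tested against each other or against the members.

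**Figure D4:**
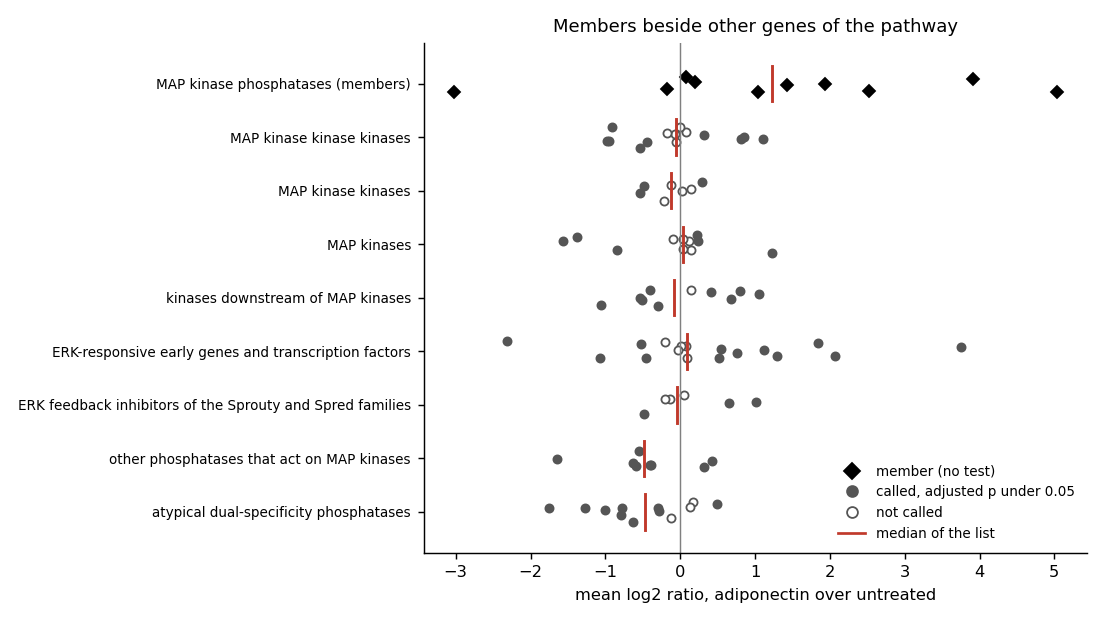
Mean log2 ratio of adiponectin over untreated (x axis), 1 point a gene, with the median of each list in red. Diamonds are the 10 members, given as a description. Circles are the measured genes of 8 other pathway lists, filled where called in limma. The members span -3.03 to 5.04, and the medians of the other lists lie between -0.48 and 0.09.

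The RNA came from whole cultures, so fewer cells of a type and less RNA per cell cannot be told apart. Well above background were 43.9% to 47.5% of probes in treated channels and 53.4% to 54.3% in untreated channels. The 3 arrays shared 1 slide and 1 scan, and their ratios correlated across genes at r = 0.943 to 0.968, where genes are not independent replicates. All 8 macrophage markers with a probe were above background in every channel. In limma 2 of them rose and 6 fell, and their summed intensity was 156857 to 193094 in treated and 310550 to 337375 in untreated samples. The neutrophil list summed to 26702 to 41780 in treated and 25301 to 29121 in untreated samples, with 3 of 8 tested markers higher and 3 lower. The dendritic cell list summed to 44541 to 49851 in treated and 35846 to 42132 in untreated samples. Of its 5 tested markers 1 was called higher, Zbtb46 at 1.51, and Cd209a, Clec9a and Xcr1 were never well above background. Cd3d, Cd3g and Cd8a of T cells, Ms4a1 and Ebf1 of B cells and Lum, Pdgfra and Postn of fibroblasts were never well above background either. Other markers of these lists were measured. Of 4 tested T cell markers 2 were called higher, Cd3e at 0.96 and Lck at 0.89, of 4 B cell markers 1 was higher and 1 lower, with Cd79b at -1.69, and of 4 fibroblast markers 2 were higher, with Dcn at 0.79. The part of these shifts in the ratios of the members was not tested.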

How the data were processed

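Per the labels, total RNA of treated and untreated macrophages was labelled with Cy3 and Cy5 and put on 3 Agilent 2-colour arrays. Per the submitters' processing notes and the file headers, spots were quantified with Agilent Feature Extraction 10.7.3.1 on a design placed on build mm9. The deposited intensity columns hold median spot and local background brightness without normalization, and a deposited log10 column gives Cy5 over Cy3 from the processed signals of the scanner software. The authors' deposited log2 table has no stated processing. Its columns correlated at r = 0.990 to 0.994 with loess ratios without background correction, already turned to treated over untreated, so its direction and centring were taken from this comparison and its background handling stays unknown.

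Median signals were corrected with normexp (offset 50) and normalized with loess in limma 3.58.1 (R 4.3.3), with control spots at weight 0. Outlier spots (299 to 323 an array) were left out, and no spot was saturated. Levels per channel were scaled between arrays with Aquantile. Accessions were named through RefSeq (GRCm38.p6), for symbols and promoter windows. A probe needed at least 3 of 6 channel readings well above background, and the brightest probe stood for a gene, which left 13182 genes. The 3 ratios were tested against 0 with lmFit, eBayes and Benjamini-Hochberg adjustment at 0.05, with 2 residual and 6.21 prior degrees of freedom. The fit was tested on simulated data. The number of arrays limits the precision. The members and lists were chosen with earlier results of these data known. From each pathway list, up to 3 called genes a direction with a log2 ratio beyond 1 were named with values, and others are named as counts require. The likeness rule took the 3 nearest genes by root mean square. A few genes that these rules named are not reported here. The unit of the dose follows the treatment text, as the extraction text gives the same figure in mg/ml.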

Additional observations from a re-analysis of the deposited data

How the results depend on the processing

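The direction of the mean log2 ratio was kept under 15 alternatives for Dusp1, Dusp2, Dusp4, Dusp5, Dusp6, Dusp8, Dusp10 and Dusp16. Dusp9 kept its sign under the 14 that gave it a value, but was at -0.0031 with every array centred on its tested genes. Some alternatives left the mean of a member as it was and say nothing on its direction. These were no filter on dim probes, all 6 readings well above background and 6 channels as separate samples. Averaging the probes of a gene was another for members with 1 probe. Dusp7 turned to -1.06 under median centring instead of loess, and leaving out 1 array gave it -0.085 to 0.199, with -0.085 without replicate 2. Median centring called 0 genes higher and 0 lower over all genes in limma, against 3230 and 6075, and likewise 0 and 0 of the pathway genes, against 25 and 34, with 5315 genes at an unadjusted p under 0.05. It moved the median of all tested genes to -1.03, and gave Dusp2 3.91 and Dusp6 -4.18. The cause was not tested. The 15 named pathway genes lost their call with median centring, which gave the 9 that fell -3.48 to -2.15. Under the rest of the alternatives none of the 15 lost its call where it had a value, and Il17rd had none when all 6 readings had to be well above background. Of the calls, 65.3% were lower, and 51.0% were (4640 higher, 4836 lower) with every array centred on its tested genes. Leaving out 1 array gave 2762 to 3149 genes higher and 5368 to 6143 lower. Each ratio pairs the RNA samples of 1 array. Without that pairing (6 channels as separate samples, no replicate block) 3244 genes were higher and 6143 lower. Members at 2-fold or more, 6 higher and 1 lower as reported, were 4 and 2 with median centring, 6 and 2 by the log ratio of the scanner software (Dusp9 at -1.15), and 5 and 1 without replicate 2 or with estimated array weights. How far signal over background sets the size of the ratios was not tested.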

Other observations

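Of 28 measured pathway genes with several probes, 11 had probes with mean log2 ratios of opposite sign, and 6 of these 11 were called through their brightest probe. The genes given here were chosen after their values were seen. Ppm1b, a metal-dependent phosphatase, had -0.59 with its brighter probe and 0.62 with the dimmer. Srf, the serum response factor, had 0.54 and -0.48, and Fosl2, an AP-1 subunit, had -0.46 and 0.53, brighter probe first in each case.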
